A study of Mus musculus with 6 samples.

Results

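The receptors that guide thymocytes through the thymus and out of it were examined in sorted DP thymocytes: *Ccr7*, *Ccr4*, *Ccr9*, *Cxcr4*, *Plxnd1* and *S1pr1*. They were chosen by gene symbol, as chemokine, semaphorin and sphingosine phosphate receptors, and each of the 6 had its own row among the 23183 gene symbols of the expression files. DP (double positive) cells are the stage of T cell development at which CD4 and CD8 are carried together. The study compared 3 mRNA-seq libraries from *Nsrp1* f/f mice (WT) with 3 from *Nsrp1* f/f CD4Cre mice (NSrp70-cKO), all C57BL/6 and 6 weeks old, to ask which genes respond when the splicing factor NSrp70 is lost at this stage. Both genotypes carry the floxed alleles, and the CD4Cre transgene, which acts in T-lineage cells from about the DP stage onward, is present only in the cKO mice, so WT mice do not control for Cre itself. No label states that the libraries came from separate mice, and the p-values therefore measure only the spread between these libraries.

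A thymocyte changes its set of homing receptors as it matures. CXCR4 and CCR9 read the chemokines CXCL12 and CCL25, which the thymic stroma makes, and are carried by thymocytes of the cortex. Plexin-D1, the product of *Plxnd1*, binds semaphorin 3E and takes part in the movement of positively selected thymocytes toward the medulla. CCR4 and CCR7 answer to medullary chemokines, CCL17 and CCL22 for CCR4 and CCL19 and CCL21 for CCR7. The sphingosine 1-phosphate receptor S1PR1 opens the last step, the exit of mature single positive (SP) thymocytes into the blood, and its gene is switched on by the transcription factor KLF2. *Ccr7* and *S1pr1* are thus also markers of mature cells, and in bulk RNA fewer such cells in a sort and less RNA per cell cannot be told apart.

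The part of the *Ccr7* mRNA that the study chose for its own quantitative RT-PCR shows where this transcript can be measured across splice junctions, and its primers are given here because *Ccr7* had the largest difference of the 6 on the log2 scale used below. On the annotated transcript of 1978 nucleotides and 3 exons, the forward primer covers positions 88 to 108 and crosses the junction of exons 1 and 2, the bases in exon 2 being in capitals. The reverse primer, in lower case throughout, lies in coding sequence of exon 3, at chr11:99145816-99145836 of GRCm38 (mm10), and is written 5′ to 3′ as the complement of the mRNA.
Ccr7 forward primer: agGGAAACCCAGGAAAAACGT
Ccr7 reverse primer: cgtcatggtcttgagcctctt
The product spans 271 nucleotides. No value of the RT-PCR is used here.

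The values that the authors deposited are FPKM, the fragments of a gene per kilobase of its transcript, scaled by how many fragments were mapped. From steps of 1 fragment at low values, the depth was estimated as 20.7 to 20.8 M fragments (M, mega) in the WT libraries and 13.1, 20.5 and 17.4 M in cKO 1, 2 and 3. The targeted gene *Nsrp1*, listed as *Ccdc55*, had an FPKM of 20.2, 20.7 and 21.1 in WT and of 17.7, 15.8 and 15.0 in cKO (log2 difference -0.34, adjusted p = 0.00675 from limma, 0.184 when the WT libraries stood for 1 sample). These values sum reads over the whole gene, and the deleted part is not given in the sources used here, so they do not show how much intact *Nsrp1* mRNA was left in the libraries labelled NSrp70-cKO. Squared differences between WT libraries had a median of 1.20 to 1.29 times that of counting noise, and those between cKO libraries 5.07 to 11.5 times. The WT values are therefore given with their range, and the tests were repeated with the 3 WT libraries averaged into 1 sample. Mean FPKM of *Xist* was 70.9 in WT and 4.75 in cKO. The Y-linked genes *Uty*, *Kdm5d*, *Ddx3y* and *Eif2s3y* were at 0 in each WT library and averaged 7.23, 11.1, 31.0 and 36.2 in cKO, so the sex of the mice and the genotype cannot be told apart. All 8 proliferation genes examined were higher in cKO, with a summed FPKM of 882 to 890 in WT and 1794 to 2062 in cKO.

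*S1pr1*, *Ccr7* and *Plxnd1* were lower in NSrp70-cKO DP thymocytes, *S1pr1* at 3.98%, *Ccr7* at 10.9% and *Plxnd1* at 52.4% of the WT mean FPKM. Once GC content and length were corrected for, *Plxnd1* had a log2 difference of -0.15 and was no longer called. *Cxcr4*, *Ccr9* and *Ccr4* were at 119%, 117% and 116% of the WT mean. Of these, *Cxcr4* was called higher, and *Ccr9* and *Ccr4* did not pass the test. The direction of *Cxcr4* turned under quantile normalization, with the same FPKM total in all libraries and with the correction for GC content and length. For the test, FPKM values were divided by a size factor per library and limma was run on log2(FPKM + 1) of the 10326 genes that reached an FPKM of 1 in 3 or more libraries, with Benjamini-Hochberg adjustment over all of them. Log2 differences (cKO minus WT) are on that scale, where the added 1 shrinks the change of genes with low values. Values after ± are the SD over the 3 cKO libraries.

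All 6 receptors passed the filter, *S1pr1* only through its WT libraries, which means that it had to differ. At an adjusted p under 0.05, 4 of the 6 were called, 3 lower and 1 higher, against 65.5% of all genes tested in either direction, 29.8% lower and 35.8% higher. When all libraries were given the same FPKM total, the calls over all genes moved from 3693 higher and 3073 lower to 903 higher and 6182 lower, and the median log2 difference of all genes from 0.039 to -0.45. A difference of at least 2-fold downward with such a p was met by *Ccr7* and *S1pr1*, and by 4.71% of all genes. Averaging the WT libraries into 1 sample left 3 of the 6 called, all lower, against 15.9% of all genes, and correcting for GC content and length left 2, both lower, against 57.2%. Quantile normalization gave 5 of the 6 as called, all lower, against 63.2% of all genes in either direction and 29.9% lower, and the same FPKM total gave 5 as well, all lower, against 68.6% and 59.9%. Genotypes did not overlap in 5 of the 6 receptors, with cKO above WT in 2 and below in 3, and in 72.5% of all genes, 39.2% above and 33.3% below. These counts describe the receptors and single out no direction for them as a group. For 3 libraries against 3, the exact two-sided permutation test cannot give a p below 0.1, the value it gave for each receptor except *Ccr4* (p = 0.5).

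**Figure D1:**
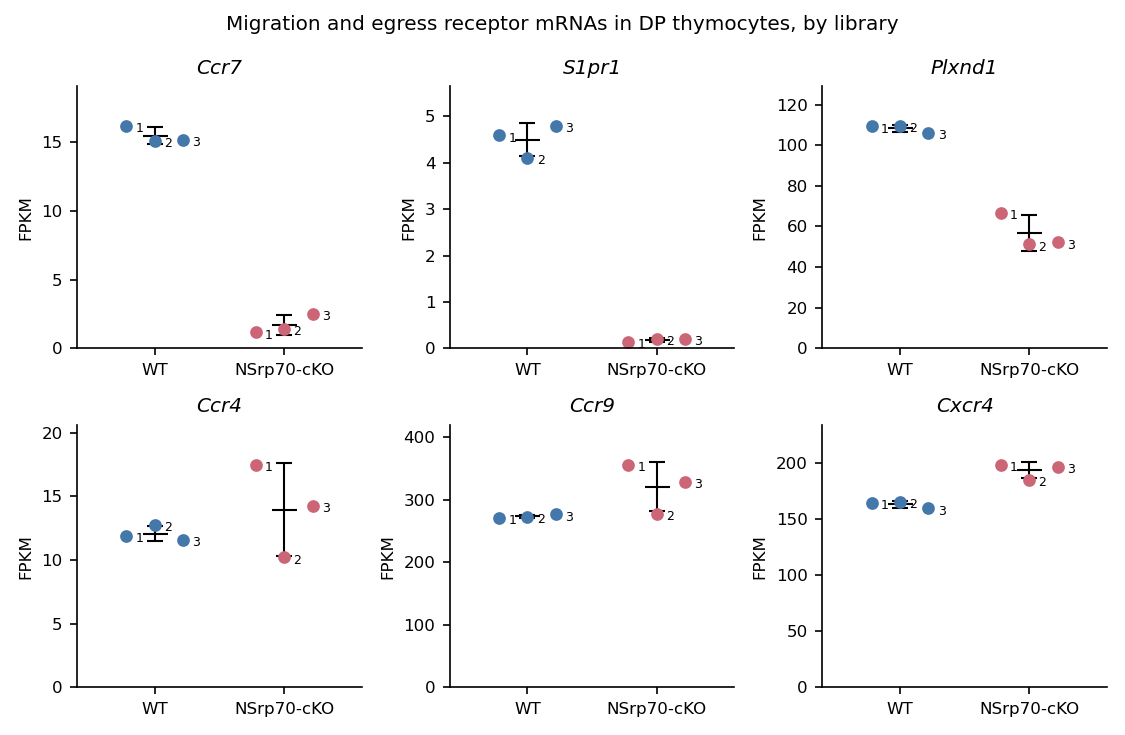
FPKM (vertical axes, each from 0) of the 6 receptor genes in the WT and NSrp70-cKO libraries, with 1 point per library numbered as in the text and a bar for the mean ± SD (n = 3). The cKO points lie below the WT points for *Ccr7*, *S1pr1* and *Plxnd1*, above them for *Ccr9* and *Cxcr4*, and on both sides for *Ccr4*, where cKO 2 is at 10.2.

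*Ccr7*, the receptor that draws selected thymocytes into the medulla, lies on chromosome 11 of GRCm38 from 99144196 to 99155077 and has a single annotated transcript. Its FPKM was 16.2, 15.1 and 15.2 in WT 1, 2 and 3 and 1.16, 1.42 and 2.50 in cKO 1, 2 and 3. Every cKO library was well below every WT library, with cKO 3 the highest of the 3. The cKO mean of 1.69 ± 0.711 (SD, n = 3) was 9.14-fold lower than the WT mean of 15.5, and the closest and the farthest pair of libraries differed 6.03-fold and 14.0-fold. On the log2 scale the difference was -2.64 (standard error 0.17, 95% interval -3.05 to -2.23, adjusted p = 0.000106 from limma). *Ccr7* was the most variable of the receptors among the cKO libraries, with a coefficient of variation of 42.0%, against 3.93% among the WT libraries.

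The *Ccr7* values in cKO rest on few fragments. About 597, 554 and 557 fragments stand behind the WT values and 27, 52 and 77 behind those of cKO 1, 2 and 3, with exact 95% Poisson intervals of 17.8 to 39.3, 38.8 to 68.2 and 60.8 to 96.2, which cover counting error only. Even the highest cKO limit is far under the lowest WT value. Among the 10326 genes ranked by mean FPKM, *Ccr7* went from rank 4980 in WT to 9449 in cKO. The call held under all 16 alternative settings, with log2 differences from -3.19 to -1.61 that moved mainly with the pseudocount, and with an adjusted p of 0.0230 when the WT libraries stood for 1 sample (range over the alternatives 2.61e-05 to 0.0230).

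*Ccr4*, the other receptor for medullary chemokines, lies on chromosome 9 from 114490316 to 114504916. In WT its FPKM was 11.9, 12.7 and 11.6, and in cKO it was 17.5, 10.2 and 14.2. The cKO libraries stood on both sides of the WT libraries, with cKO 2 below all of them. The cKO mean was 14.0 ± 3.64 (SD, n = 3) and the WT mean 12.1, a log2 difference of 0.16 (standard error 0.17, 95% interval -0.25 to 0.57, adjusted p = 0.432 from limma). Without cKO 2 the difference was 0.36 (adjusted p = 0.0130), and without cKO 1 it was -0.0062 (adjusted p = 0.971), the range of the adjusted p over all alternatives being 0.0130 to 0.973. The interval of the main fit reaches from a small decrease to an increase of the size seen in cKO 1, so no difference of *Ccr4* was detectable with these libraries.

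*Cxcr4*, the receptor for CXCL12, is on chromosome 1 from 128588199 to 128592293. Its FPKM was 165, 165 and 160 in WT and 198, 185 and 197 in cKO. The cKO libraries, which varied less for *Cxcr4* than for any other receptor (coefficient of variation 3.70%), all lay above the WT libraries. Their mean of 194 ± 7.16 (SD, n = 3) stood 1.19-fold over the WT mean of 163, a log2 difference of 0.24 (standard error 0.070, 95% interval 0.078 to 0.41, adjusted p = 0.0185 from limma). The sign turned under quantile normalization (-0.23), with the same FPKM total (-0.32, which is 0.14 above the median of all genes in that setting) and when GC content and transcript length were corrected for (-0.16). In the first and second of these settings *Cxcr4* was called lower (adjusted p from limma 0.00768 and 0.00661). When the WT libraries stood for 1 sample the adjusted p was 0.384, the largest over the alternatives, whose smallest was 0.00125.

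*Ccr9*, which encodes the receptor for CCL25, was the most abundant of the 6 in every library and lies on chromosome 9 from 123678439 to 123784330. Its FPKM was 271, 273 and 277 in WT and 355, 278 and 329 in cKO. All cKO values lay above the WT values, but cKO 2 exceeded the highest WT library by less than the WT range. The means were 274 in WT and 321 ± 39.4 (SD, n = 3) in cKO, and the log2 difference of 0.22 did not pass the test (standard error 0.11, 95% interval -0.036 to 0.48, adjusted p = 0.112 from limma). It was called in 3 of 16 alternatives, higher without cKO 2 (0.32, adjusted p = 0.00171) and lower under quantile normalization (-0.30, adjusted p = 0.00912) and with the same FPKM total (-0.34, adjusted p = 0.00618), and its adjusted p ranged up to 0.528. The annotated span of *Ccr9* holds 6 other gene models, among them the processed pseudogene *Gm10052* on the opposite strand, at an FPKM of 317 to 333 in WT and 583 to 737 in cKO. The kit marks strand, but the strand setting of the FPKM calculation is not stated in the sources used here, and how reads were divided between such genes is therefore uncertain.

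*Plxnd1*, the gene of the semaphorin receptor plexin-D1, is on chromosome 6 from 115954811 to 115995005. It had an FPKM of 109, 109 and 106 in WT and of 66.9, 51.1 and 52.1 in cKO. The groups were separate, with cKO 1 nearest to WT. The mean fell from 108 to 56.7 ± 8.80 (SD, n = 3), 1.91-fold lower, with single pairs of libraries 1.59-fold to 2.14-fold apart. The log2 difference was -0.93 (standard error 0.11, 95% interval -1.20 to -0.67, adjusted p = 0.000515 from limma). *Plxnd1* has the longest transcript of the 6, at 6907 nucleotides, and the highest GC content, at 60.8%, and once GC content and length were corrected for, its difference was -0.15 (adjusted p = 0.114), while in the other 15 alternatives it was called lower (adjusted p over all 16 from 5.83e-05 to 0.114).

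*S1pr1*, the exit receptor, lies on chromosome 3 from 115710433 to 115715072 and has a single annotated transcript of 3046 nucleotides. It was the lowest of the 6 in both genotypes, with an FPKM of 4.59, 4.11 and 4.79 in WT and of 0.133, 0.203 and 0.201 in cKO. No cKO library came near the WT range. The mean fell from 4.50 to 0.179 ± 0.0397 (SD, n = 3), 25.1-fold lower, and the pairs of libraries closest and farthest apart differed 20.3-fold and 36.0-fold. About 272, 242 and 282 fragments stand behind the WT values, but only about 5, 12 and 10 behind those of cKO 1, 2 and 3, with exact 95% Poisson intervals of 1.62 to 11.7, 6.20 to 21.0 and 4.80 to 18.4. The size of the fold is thus loosely fixed by counting alone, although the intervals of the genotypes are far apart.

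On the log2(FPKM + 1) scale *S1pr1* differed by -2.21 (standard error 0.089, 95% interval -2.42 to -2.00, adjusted p = 3.42e-05 from limma). This scale compresses low values, and the difference was -4.05 with a pseudocount of 0.1 and -0.87 with one of 5. *S1pr1* was called lower in all 15 alternatives that gave a value, at an adjusted p of 0.0113 when the WT libraries stood for 1 sample (range 1.12e-05 to 0.0113). As *S1pr1* passed the main filter only through its WT libraries, its direction was fixed in advance in each setting that kept this filter. Without a filter it was called lower as well (-2.21, adjusted p = 0.0002 from limma). In rank *S1pr1* went from 8239 to 10313 of 10326 genes.

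**Figure D2:**
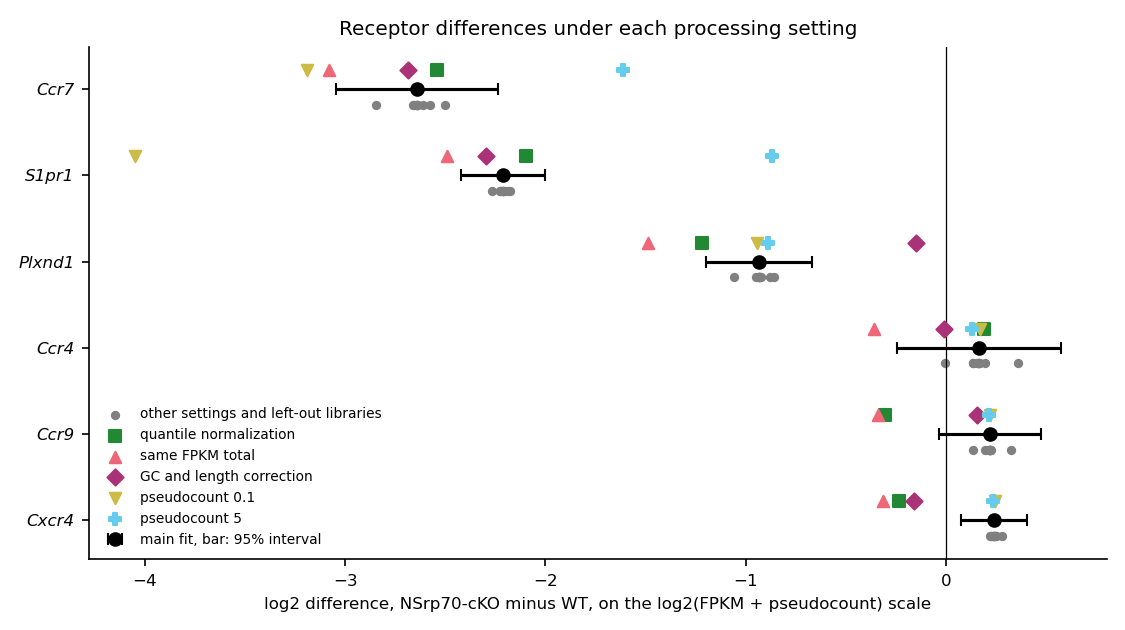
Log2 difference between NSrp70-cKO and WT (horizontal axis) of each receptor gene in the main limma fit (black, with its 95% interval) and under each alternative setting (coloured symbols for 5 of them, grey points for the others and for each library left out). *Ccr7* and *S1pr1* stay below 0 throughout and move with the pseudocount, *Plxnd1* moves to -0.15 with the correction for GC content and length, and *Ccr4*, *Ccr9* and *Cxcr4* fall on both sides of 0.

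The order of the receptors within a library needs no scaling between libraries. FPKM is per length, and a ratio of 2 genes in 1 library is free of the size factor. Order and ratios were not corrected for GC content and length, however. With that correction the log2 difference was -0.15 for *Plxnd1* and 0.16 for *Ccr9*, against -0.93 and 0.22 in the main fit. How far the ratios with *Plxnd1* would still separate the genotypes was not tested. In WT the order by FPKM was *Ccr9*, *Cxcr4*, *Plxnd1*, *Ccr7*, *Ccr4* and *S1pr1*, and in cKO *Ccr4* and *Ccr7* changed places. Neighbours in either order did not overlap between libraries. Of the 15 ratios between pairs of receptors, 12 did not overlap between the genotypes, against 69.8% of the ratios between all pairs of tested genes with no value at 0, and the 3 that did were those among *Ccr4*, *Ccr9* and *Cxcr4*.

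The ratio of *Ccr9* to *Cxcr4*, both receptors of cortical cells, was 1.65, 1.65 and 1.73 in WT and 1.79, 1.50 and 1.67 in cKO. This pair therefore kept overlapping ratios while both of its levels were 1.17-fold and 1.19-fold the WT level. Between the medullary receptors, *Ccr4* to *Ccr7* stood at 0.738, 0.845 and 0.765 in WT and at 15.1, 7.19 and 5.69 in cKO. *Ccr9* to *S1pr1* went from 59.1, 66.3 and 57.7 in WT to 2672, 1371 and 1635 in cKO. For *Ccr9* to *Plxnd1* the ratios were 2.48, 2.49 and 2.61 against 5.32, 5.43 and 6.30. The 2 receptors with the largest decreases were also separated from each other, with *Ccr7* to *S1pr1* at 3.52, 3.67 and 3.16 in WT and 8.70, 7.00 and 12.4 in cKO. Each ratio that did not overlap had an exact two-sided permutation p of 0.1, the smallest possible.

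**Figure D3:**
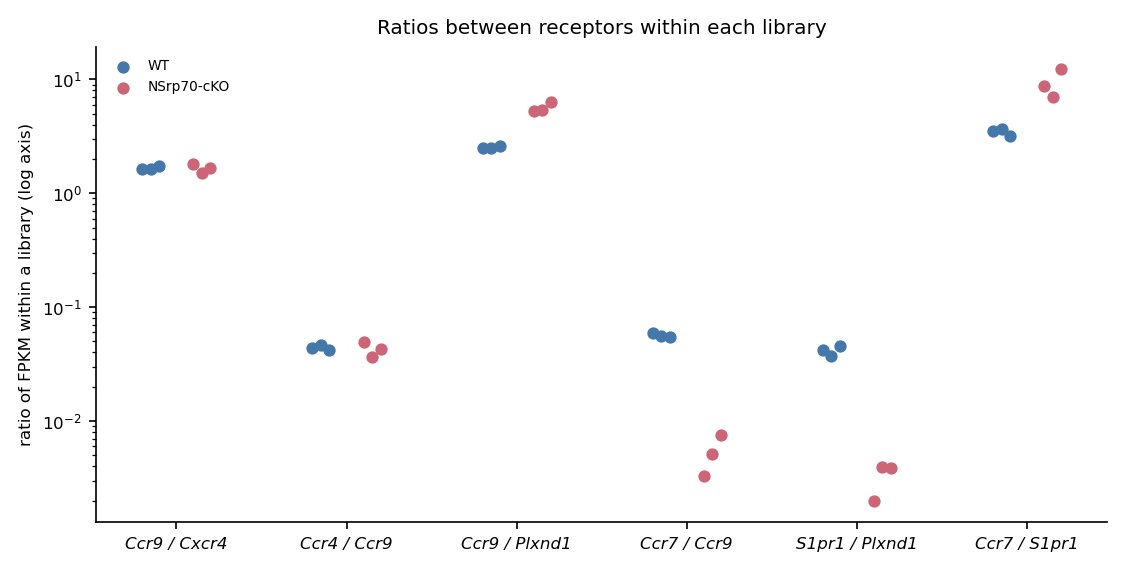
Ratio of the FPKM values of 2 receptor genes within 1 library (vertical log axis) for 6 of the 15 pairs, with 1 point per library (WT blue, NSrp70-cKO red). *Ccr9* to *Cxcr4* and *Ccr4* to *Ccr9* overlap between the genotypes, and each pair that holds *Ccr7*, *S1pr1* or *Plxnd1* separates them. The ratios are not corrected for GC content and length.

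Of 8 genes listed as ligands of the receptors, 6 stayed under an FPKM of 1 in every library. Which cells make the ligands was not tested. *Ccl19* and *Cxcl12* were listed at 0 in all 6 libraries, and *Ccl17*, *Ccl21a*, *Ccl22* and *Sema3e* stayed under an FPKM of 1. *Ccl25*, the ligand of CCR9, was at 1.90, 2.81 and 2.36 in WT and at 2.18, 3.23 and 2.59 in cKO (log2 difference 0.13, adjusted p = 0.455 from limma). *Sema4a*, which encodes a semaphorin that can bind plexin-D1, fell from 4.51, 4.19 and 4.44 to 0.317, 0.688 and 0.770, a log2 difference of -1.76 (standard error 0.12, adjusted p = 0.000114). As its cKO values are all under 1, it passed the filter only through WT and had to differ.

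Few other chemokine receptors were present. Of 19 listed, 17 were under an FPKM of 1 in every library, including the scavenging receptors *Ackr3* and *Ackr4*, at WT means of 0.0438 and 0.134. The only one tested, *Ccr8*, whose product is carried by some mature CD4 thymocytes, passed the filter through its WT libraries alone and went from 1.17, 1.39 and 1.53 to 0.408, 0.366 and 0.186 (log2 difference -0.84, adjusted p = 0.000750 from limma).

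Relatives of *S1pr1* and *Plxnd1* were divided. Among 21 listed genes of sphingosine 1-phosphate handling and of the plexin and neuropilin families, 10 were tested, 2 higher, 5 lower and 3 not called, with a median log2 difference of -0.26 beside 0.039 for all genes tested. The 7 of 10 called are near the 65.5% of all genes. The split was 0 higher to 8 lower with the same FPKM total, and 2 to 2 with a median of 0.071, of the opposite sign, once GC content and length were corrected for. *S1pr4*, a receptor of lymphocytes, averaged 12.6 in WT and 8.74 ± 1.46 in cKO, a log2 difference of -0.49 (adjusted p = 0.0100 from limma) that was -0.096 once GC content and length were corrected for. *S1pr2* was at 4.11 in WT and 4.01 ± 0.520 in cKO and was not called. The sphingosine kinase gene *Sphk2* (-0.50), the lysolipid transporter gene *Spns1* (-0.74) and *Plxnb1* (-0.81) were lower, though *Sphk2* was at 0.031 and *Plxnb1* at -0.070 with that correction. *Plxnb1* and *Plxna1*, 2 of the 5 lower genes, passed the filter only through WT and had to differ. *Nrp1*, whose product neuropilin-1 can join plexin-D1 in a receptor complex, rose from a mean of 12.3 to 16.4 ± 2.89, by 0.38 (adjusted p = 0.0341), but turned to -0.15 with the same FPKM total.

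Genes that carry the signal of these receptors moved in both directions. Of 41 listed, 37 were tested, with 11 higher, 18 lower and 8 not called and a median of -0.23. Over all genes tested, 35.8% were called higher and 29.8% lower. The split was 4 higher to 23 lower under quantile normalization, where 29.9% of all genes were lower. It was 1 to 32 with the same FPKM total, where 59.9% of all genes were lower. With the correction for GC content and length it was 9 to 20, where 3077 of 10267 genes were higher and 2792 lower. *Gnai2*, the main inhibitory G protein alpha subunit of chemokine receptors in lymphocytes, had an FPKM of 305, 311 and 300 in WT and 205, 165 and 214 in cKO, a log2 difference of -0.65 (adjusted p = 0.00215 from limma). *Gnai3* was higher, by 0.55, at a mean of 95.8 in WT and 141 ± 11.2 in cKO, and was at -0.0045 with the same FPKM total. *Gnb2* (-0.85) and *Gng2* (-0.65), which encode G protein beta and gamma subunits, were lower. So were the kinases and arrestins that switch the receptors off, *Adrbk1* (GRK2, -0.64), *Grk6* (-0.80), *Arrb1* (-0.75) and *Arrb2* (-0.89), as well as the G protein inhibitors *Rgs1* (-1.18), *Rgs3* (-0.97) and *Rgs19* (-0.67). With the correction for GC content and length, *Adrbk1* was at -0.20, *Grk6* at -0.39, *Arrb1* at -0.33 and *Arrb2* at -0.79. The inhibitors *Rgs1*, *Rgs3* and *Rgs19* were then at -1.30, -0.60 and -0.93. *Rgs10*, the most abundant gene of that family in the list, was higher, at a mean of 148 in WT and 192 in cKO (0.36, adjusted p = 0.0126), and *Rgs2* was not called.

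Downstream of the G proteins, *Arhgef1*, a RhoA exchange factor that acts behind G12 and G13, fell from a mean of 293 to 109 ± 17.4 (log2 difference -1.44) and *Arhgap45*, listed as *Hmha1*, from 519 to 202 ± 53.8 (-1.39). With the correction for GC content and length, *Arhgef1* was at -0.80 and *Arhgap45* at -0.81. *Pik3r5*, a regulatory subunit of the PI3 kinase that G proteins activate, was lower (-0.74), while its catalytic partner *Pik3cg* was higher (0.57). *Pik3cg* was at 0.028 with the same FPKM total, and *Pik3r5* at -0.24 once GC content and length were corrected for. *Cdc42* (0.79) and *Coro1a* (0.55), which serve the actin skeleton, were higher, and *Coro1a* turned to -0.21 under quantile normalization and to -0.0071 with the same FPKM total. Of the 37 genes, 10 were still called when the WT libraries stood for 1 sample, each of them lower.

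The egress and homing list, which also holds the transcription factors of late thymocyte maturation, was mostly lower. Of its 23 genes, all tested, 18 were lower, 2 higher and 3 not called, with a median log2 difference of -0.55. Over all genes tested, 29.8% were called lower and 35.8% higher. This list, like the others, was chosen with earlier results of these data known, so its count is a description of these genes only. *Klf2*, which encodes the activator of *S1pr1*, had an FPKM of 18.8, 18.4 and 17.5 in WT and 4.30, 6.59 and 3.86 in cKO, a log2 difference of -1.73 (standard error 0.16, adjusted p = 0.000218 from limma). *Foxo1*, a factor upstream of *Klf2* and *Ccr7*, fell from a mean of 13.3 to 8.39 ± 0.816 (-0.61, adjusted p = 0.00103). *Cd69*, whose product pulls S1PR1 from the cell surface, was at 35.1 in WT and 26.7 ± 6.20 in cKO (-0.41, adjusted p = 0.0418, or 0.261 when the WT libraries stood for 1 sample).

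The other genes of that list fell into adhesion and transcription. The integrin genes *Itgb7* (-1.74) and *Itgae* (-1.32), the interleukin 7 receptor gene *Il7r* (-1.67) and the oxysterol receptor gene *Gpr183* (-0.60) were lower. Of the 18 lower genes of the list, 3 (*Itgae*, *Gpr183* and *Zbtb7b*) had every cKO library under an FPKM of 1 and passed the filter only through WT, so that they had to differ. Lower as well were *Zbtb7b* (-1.68) and *Runx3* (-1.13), which direct the CD4 and CD8 lineages, *Nr4a1* (-1.21), *Lef1* (-0.89), *Tcf7* (-0.56) and *Satb1* (-0.55). *Selplg*, which encodes the P-selectin ligand, rose from a mean of 129 to 235 ± 61.1, by 0.83. Under the same FPKM total its difference was 0.27 and was not called.

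**Figure D4:**
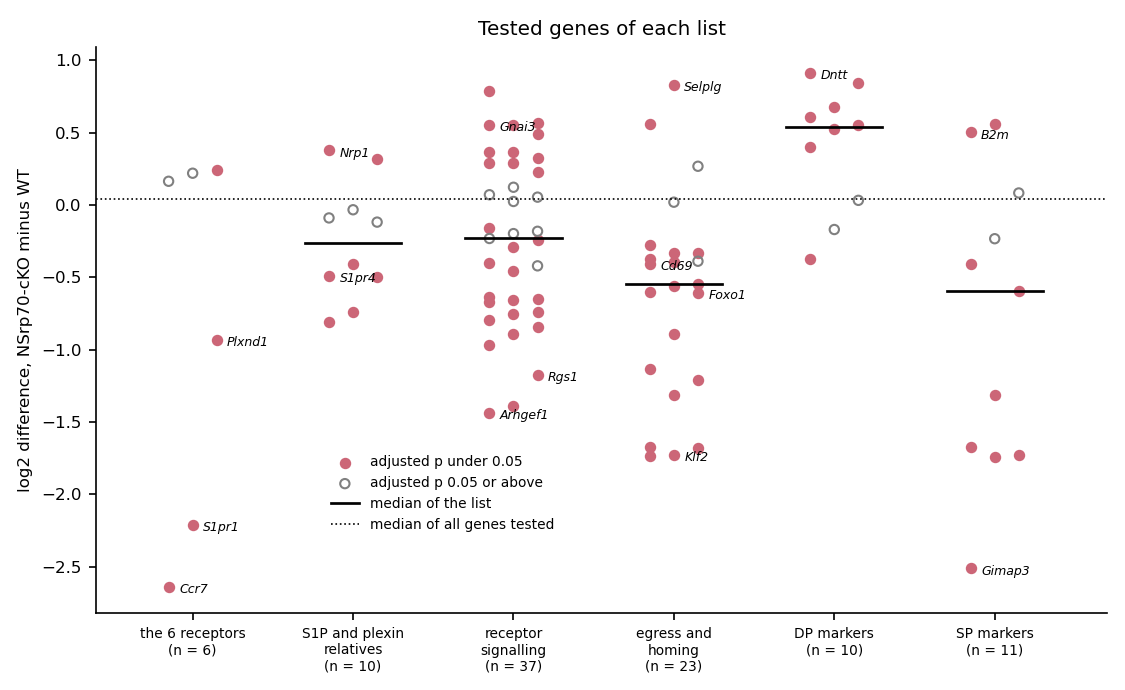
Log2 difference between NSrp70-cKO and WT of every tested gene in the receptor set and in 5 gene lists, 1 point per gene, filled where the adjusted p from limma was under 0.05. The egress and homing genes have a median of -0.55 and the SP markers of -0.59, the DP markers of 0.54 that moves to -0.033 under quantile normalization, and the dotted line is the median of all 10326 genes at 0.039.

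Markers of maturity moved with *Ccr7* and *S1pr1*. Of 12 SP markers, 11 were tested, 7 lower, 2 higher and 2 not called, with a median of -0.59, among them *Gimap3* (10.9 to 1.09, -2.51), *Ms4a4b* (14.9 to 3.90, -1.74) and *H2-K1* (78.6 to 31.1, -1.31), and *Klf2*, *Il7r* and *Cd69* are in this list too. Its summed FPKM was 933 to 934 in WT and 938 to 1105 in cKO, most of it from *B2m*, and none of its genes was at 0 in a whole group. Of 10 DP markers, 7 were higher and 1 lower, the higher ones including *Cd4*, *Cd8a*, *Rag1*, *Rag2* and *Dntt*, with a summed FPKM of 5664 to 5744 in WT and 7483 to 9757 in cKO, but 1 was higher and 4 were lower under quantile normalization and 2 and 3 with the same FPKM total. The libraries thus held the DP genes at high levels in both genotypes. The part that mature cells in the sort had in the lower *Ccr7* and *S1pr1* was not tested.

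Genes of other cells were mostly low, and some of them moved as far as the receptors. The summed FPKM of 6 regulatory T cell markers was 64.3 to 66.3 in WT and 49.3 to 52.6 in cKO, and that of 6 double negative markers 154 to 158 and 94.7 to 109. Most of the second sum came from *Bcl11b*, at a mean of 137 in WT and 92.3 in cKO. In the first list the sum rests on *Ikzf2* and *Tnfrsf18*, which were not called, while *Ctla4* fell from a mean of 14.3 to 4.47 (-1.52, adjusted p = 0.000519 from limma) and *Tnfrsf4* from 4.28 to 1.63 (-1.14). For 7 natural killer and gamma-delta markers it was 4.67 to 5.77 and 1.64 to 2.76, with *Il2rb* at a mean of 2.95 in WT and 0.606 in cKO, so that it passed the filter only through WT. It was 22.8 to 24.2 and 26.7 to 39.4 for 6 B cell markers, nearly all from *Cd79b*, 7.48 to 10.1 and 7.24 to 8.10 for 10 myeloid markers, and 47.8 to 49.3 and 53.7 to 57.6 for 10 stromal markers, mostly *Pecam1*, with *Foxn1* and *Krt5* at 0 throughout. The 5 erythroid markers summed to 0.603 to 1.07 in WT and 3.50 to 10.9 in cKO, from *Hba-a1*, which rose from a mean of 0.659 to 7.95 (2.31, adjusted p = 0.00172 from limma). The part of these cells in the receptor values was not tested.

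Some genes followed a receptor closely across the 6 libraries. Likeness was measured by Pearson's r of log2(FPKM + 1) among 2115 genes with a log2 range of at least 1, and since the libraries form 2 groups it is a description of 6 points. The nearest to *Ccr7* were *Carm1* (r = 0.997), *Cd7* (0.997) and *Cacnb3* (0.996), with *Cd7* at 5.76, 4.88 and 5.44 in WT and 1.40, 1.44 and 1.93 in cKO. *S1pr1* was followed by *Clip2* (0.999), *Zmiz1* (0.999) and *Oas2* (0.999), and *Plxnd1* by *Kmt2d* (1.00), *Jak3* (0.999) and *Prrc2a* (0.999). *Jak3* stood at 8.25, 8.36 and 8.01 in WT and 3.24, 2.01 and 2.10 in cKO, with cKO 1 highest of the 3, as it was for *Plxnd1*.

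The 3 receptors that were not lower had partners with another shape. *Cxcr4* was followed by *Fkbp3* (0.998), *1110008L16Rik* (0.998) and *Fh1* (0.998), and *Ccr9* by *Tkt* (0.999), *Nelfe* (0.997) and *Ano10* (0.996). *Tkt* was at 44.3, 44.8 and 46.5 in WT and 124, 49.4 and 91.0 in cKO, where cKO 2 sat next to the WT libraries as for *Ccr9*. *Ccr4* had *Akr7a5* (0.997), *Slfn2* (0.987) and *Atp5d* (0.984) nearest, each with cKO 1 highest and cKO 2 lowest of all 6 libraries. For *Ccr4* and *Ccr9*, these likenesses rest on the differences among the cKO libraries.

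Promoter sequence from RefSeq (GRCm38.p6), the 250 bases before each annotated start, was matched for *Ccr4*, *Ccr9*, *Cxcr4* and *Plxnd1* and not for *Ccr7* and *S1pr1*. Those of *Plxnd1*, the lower gene among the 4, and of *Cxcr4*, the one called higher in the main fit, are shown on the minus strand, 5′ to 3′, with the motif CACCC, which KLF factors bind, in capitals.
Plxnd1 promoter, chr6:115995006-115995255: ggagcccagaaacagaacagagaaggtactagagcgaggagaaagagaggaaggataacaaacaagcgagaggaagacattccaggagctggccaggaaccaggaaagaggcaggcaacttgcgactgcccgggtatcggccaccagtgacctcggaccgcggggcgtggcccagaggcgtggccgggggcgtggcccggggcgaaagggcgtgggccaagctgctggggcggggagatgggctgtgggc
Cxcr4 promoter, chr1:128592300-128592549: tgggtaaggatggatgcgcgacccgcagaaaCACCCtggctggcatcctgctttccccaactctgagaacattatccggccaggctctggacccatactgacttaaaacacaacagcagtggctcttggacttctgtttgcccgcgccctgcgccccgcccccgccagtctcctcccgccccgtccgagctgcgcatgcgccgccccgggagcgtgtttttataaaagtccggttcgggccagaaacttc
Searched on both strands, CACCC was found once in the promoters of *Cxcr4*, *Ccr4* and *Ccr9*, 219, 81 and 73 bases before the start, and not in that of *Plxnd1*, and 52% of 32851 RefSeq promoters of this length hold it. The GC box GGGCGG occurred 3 times in the *Cxcr4* promoter and once in that of *Plxnd1*, and in 32.7% of all promoters. The forkhead motif GTAAACA, present in 3.17% of promoters, was in none of the 4, and the E-box CAGNTG, present in 44.8%, was found once each in *Ccr4* and *Ccr9*. These matches are of letters only and do not overlap each other.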

How the data were processed

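Sorted DP thymocytes of 3 WT and 3 NSrp70-cKO libraries were analysed, grouped by their labels. The authors made strand-specific poly(A) libraries, trimmed the paired-end reads and aligned them to mm10 by Tophat. The FPKM values deposited by the authors, 1 for each gene symbol in a library, were calculated by Cufflinks. Tool versions and the gene annotation are not given in the sources used here. The authors tested counts with DESeq2, whereas FPKM values are not counts, so limma 3.58.1 in R 4.3.3 (lmFit, eBayes with trend) was used on log2(FPKM / size factor + 1), with median-of-ratios size factors of 1.00 to 1.01 for genes that reached an FPKM of 1 in 3 or more libraries. Python 3.11.15, numpy 2.4.6, pandas 2.3.3, scipy 1.17.1 and matplotlib 3.10.9 did the rest.

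The receptors and gene lists were chosen with earlier results of these data known. The genes named are the 6 receptors, their ligands, list genes with an adjusted p under 0.05 and an absolute log2 difference of at least 0.5, genes acting directly on a receptor, the 3 genes most like each receptor, the targeted gene and sex-linked genes. Marker genes outside this rule are given as examples and were chosen after their values were seen. Some genes that the rule covers are not reported here.

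Depth was estimated at 2521 genes with a single transcript over 1000 nucleotides, for an assumed fragment of 200 nucleotides, and at that depth the low *S1pr1* and *Ccr7* values in cKO have wide counting intervals. Of 23183 symbols, 22148 matched GENCODE release M21 (GRCm38), 665 matched through RefSeq synonyms and 370 had no single match. Primers came from the study's supplementary table. The limma fit was tested on simulated data for cKO minus WT, with 10326 genes, where it called 86 of 100 genes set to differ 2-fold, 98 of 100 set to differ 4-fold and 16 that were not changed. Only 200 genes were set to differ there, against 6766 called in the data. The error rate of the calls reported here was therefore not tested. Alternatives were the pseudocounts 0.1 and 5, no filter or a mean FPKM of 5, quantile normalization, the same FPKM total, no trend, a replicate block, the WT libraries as 1 sample, a spline correction (5 degrees of freedom each) for GC content and length, and each library left out.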

Additional observations from a re-analysis of the deposited data

How the results depend on the processing

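The lower *Ccr7* and *S1pr1* held their direction and their call under every alternative that gave a value, and *S1pr1* gave none under the stricter filter because its mean FPKM is under 5. For *S1pr1* the direction was fixed wherever the main filter was kept, as it passed only through WT. *Plxnd1* lost its call only with the correction for GC content and length (-0.15). The directions of the other receptors depended on the scaling, and the cause was not tested. Quantile normalization gave -0.30 for *Ccr9* and -0.23 for *Cxcr4*, the same FPKM total -0.36 for *Ccr4*, -0.34 for *Ccr9* and -0.32 for *Cxcr4*, and the correction for GC content and length -0.0083 for *Ccr4* and -0.16 for *Cxcr4*. *Ccr9* and *Cxcr4* were called lower under both scalings. With the WT libraries counted as 1 sample *Cxcr4* was no longer called (0.24). With each library left out, *Cxcr4* ranged from 0.22 to 0.28 and lost its call without any 1 of the WT libraries (adjusted p from limma 0.0747 to 0.0957), *Ccr9* from 0.14 to 0.32 and *Ccr4* from -0.0062 to 0.36, both called, among these, only without cKO 2.

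Same-numbered WT and cKO libraries did not deviate together, with correlations of -0.022, 0.038 and 0.031. As the WT libraries differed from each other by little more than counting noise, these correlations cannot show whether the numbers pair them. With the replicate block 6467 genes were called in place of 6766, *Cxcr4* was at 0.24 and no longer called (adjusted p = 0.0693 from limma), and it changed no other receptor's call.

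Counts of called genes moved most with the WT libraries counted as 1 sample, to 1641 of all genes, 1 S1P and plexin relative in place of 7, 10 signalling genes in place of 29 and 7 egress and homing genes in place of 20. With single libraries left out, between 5585 and 7667 of all genes were called. The correction for GC content and length left 4 S1P and plexin relatives. Among the other chemokine receptors 5 were called without a filter, all lower (*Ccr1*, *Ccr8*, *Cxcr3*, *Cxcr6* and *Cx3cr1*, named after their values were seen). Without a filter 7158 of 16452 genes were called, 3625 of them lower. Except for *Ccr8*, the 5 receptors failed the main filter, with WT means from 0.0364 (*Ccr1*) to 0.930 (*Cxcr6*), so their calls rest on low values. Under the stricter filter 0 were left to call, as none of the 19 passed it. Depth limits the folds of *S1pr1* and *Ccr7*, whose cKO values rest on 5 to 77 fragments.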
